A study of Mus musculus with 23 samples.

Results

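RNA sequencing of mouse cells that the labels call group 2 innate lymphoid cells (ILC2s) was compared between 6 libraries taken from brain on day 5 after MCAO (occlusion of the middle cerebral artery, which models ischemic stroke) and 6 libraries taken from blood on day 1. The 12 libraries were chosen by their labelled tissue and day, out of 23 in the series. The other libraries are 6 from blood on day 5 and 5 of cultured cells (baseline). In both groups the labels give the genotype B6.Cg-Tg(CAG-GFP)Smoc, a ubiquitous GFP transgene, while the protocol names transgenic and wild-type males. The donors were 8 to 10 weeks old and were given IL-33 every 2 days over 7 days, so both groups share this expansion. Marrow and spleen cells carrying CD25 and lacking Ter119, CD45R/B220, CD3ε, Gr1 and CD11b were kept in culture with IL-7, IL-2, IL-33 and IL-15 over 14 days. They were then sorted as CD45+Lin-ST2+KLRG1+CD127+ cells and transferred into a vein 6 hours after MCAO. How cells were sorted again after recovery from brain or blood, and whether each library came from its own mouse, is not stated in the sources at hand. The p-values therefore measure only the spread between these libraries. Brain day 5 differs from blood day 1 both in tissue and in day, and these cannot be told apart in this contrast.

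ILC2s are tissue lymphocytes without antigen receptors that depend on the transcription factor GATA3, respond to IL-33 through the receptor ST2 (gene Il1rl1) and release type 2 cytokines such as IL-5 and IL-13. The brain holds microglia, astrocytes, oligodendrocytes and neurons, the choroid plexus that secretes cerebrospinal fluid, ciliated ependyma lining the ventricles, and vascular and meningeal cells. After a stroke, lymphocytes and myeloid cells enter the injured tissue, while microglia take up debris and change their expression.

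The authors deposited normalized counts, that is, gene read counts divided by 1 factor per library. The whole reads recovered from them came to 11.6 M to 58.1 M per brain library and 14.7 M to 35.9 M per blood day 1 library (M, 1e6 reads). Each group holds 3 libraries of the labelled batch 1 and 3 of batch 2, and the batch 2 libraries were the deeper ones. Brain replicates 1 and 3 were far closer to each other than any other pair of brain libraries. Their chi-square per degree of freedom over genes was 10.1, against 348 to 786 for the other brain pairs, which exceeds counting noise but does not show that they came from separate samples. They were kept as 2 libraries, and with these 2, and the 3 closest baseline libraries, each averaged as 1 sample, 5308 genes were higher and 1967 lower in brain day 5 than in blood day 1. Blood day 1 replicate 2 stood apart from the other blood libraries (correlation across genes 0.752 to 0.786), as did brain replicate 2 among brain libraries (0.755 to 0.837). Genes with close copies, such as Hba-a1 and the MHC class I and killer receptor genes, may share reads, and the sources used here do not give the strand setting of the counting.

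The labelled cell type was checked first. The lymphocyte core list holds 9 measured genes of T, NK and innate lymphoid cells, among them the kinase Lck and the adhesion receptor Cd2. All 9 fell in brain libraries, with a median log2 difference of -9.64. The list took 4.91 to 8.8 of each 1e6 reads in brain libraries, against 2245 to 8351 in blood day 1 libraries, and 2729 to 3486 in the cultured baseline. Lck had normalized counts of 24.1, 70 and 123 in brain libraries, against 23780, 37230 and 65175 in blood day 1 libraries (lowest, median, highest), a log2 difference of -9.15 (SE 0.84, adjusted p = 3.84e-09). No brain library came near any blood library for Lck. The brain libraries therefore go against their label, since transcripts that define lymphocytes were close to absent, and they are called brain day 5 libraries below, after their tissue. In bulk libraries, fewer cells of a type and less RNA per cell cannot be told apart.

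The blood libraries were also mixed. Beside Gata3 and Klrg1 they held NK cell, T cell, B cell, platelet and erythroid transcripts, which are given below. The most abundant gene was Hba-a1, Tmsb4x or Actb, depending on the library. NK receptor genes took 0.261% to 0.51% of the total in blood day 1 libraries, against 0.00155% to 0.00977% in the cultured baseline. Lck had at most 131 normalized counts in the baseline, against at least 23780 in blood day 1 libraries. For Ncr1, an NK receptor, these were 12.2 and 10260. The blood libraries thus also departed from the cultured cells in these genes. In brain libraries the most abundant gene was Ttr or Enpp2, both of the choroid plexus, or the lysosomal protease gene Ctsd. The plot of list shares gives the values of each brain and blood day 1 library.

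**Figure D1:**
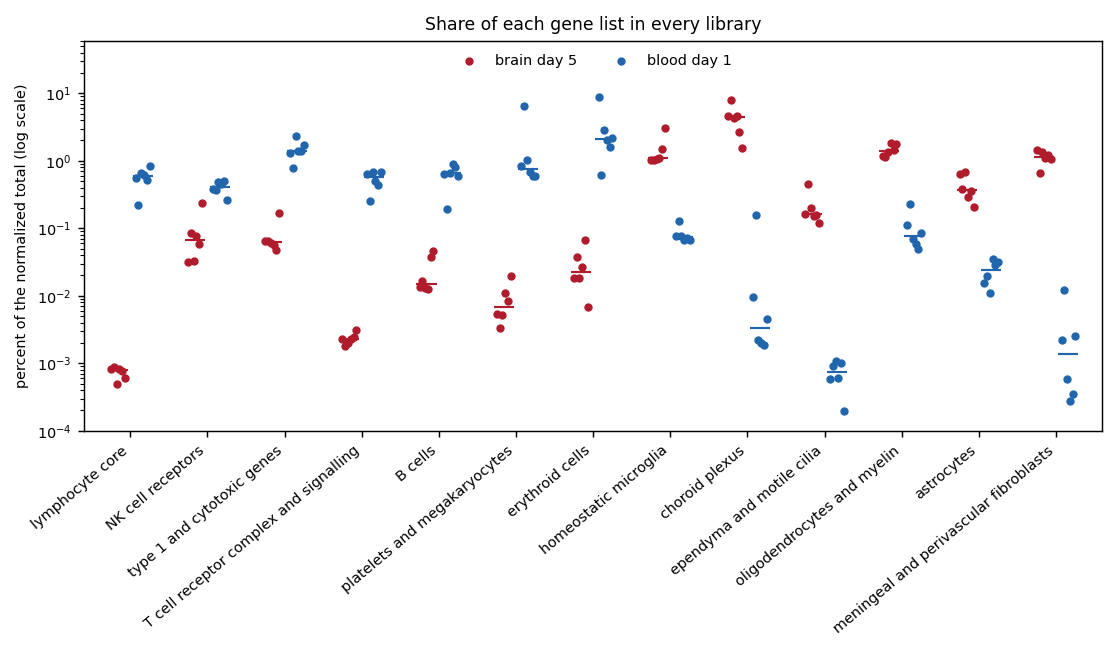
Percent of the normalized total (log scale) taken by 13 gene lists in each of the 6 brain day 5 libraries (red, left of each pair) and 6 blood day 1 libraries (blue), with the median as a bar. The lymphocyte core took 0.000491% to 0.00088% in brain libraries against 0.224% to 0.835% in blood day 1 libraries, while the choroid plexus list took 1.57% to 7.96% against 0.00186% to 0.158%.

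Of 15268 genes tested, 5692 (37.3%) were higher and 2155 (14.1%) were lower in brain day 5 than in blood day 1 at an adjusted p of 0.05 (limma, all 23 libraries, batch as covariate). A gene is said to rise or fall in brain libraries only where it passed this threshold. The median log2 difference over all genes tested was 0.77, and a list is read against that shift and those shares. Within batch 1 alone 4250 genes were higher and 1679 lower, and within batch 2 alone 4498 were higher and 1463 lower. Of the 7847 genes called, 7762 (98.9%) kept their sign in either batch. The calls were made on both batches together, so this share is not an independent check. The split between higher and lower calls depended on the scaling: 72.5% of the calls were higher with the deposited scaling, 61.2% with upper quartile scaling and 57.4% with edgeR's quasi-likelihood test on the recovered reads. Small differences near 0 are therefore less firm than the large ones below. For 3394 genes every brain library lay above every blood day 1 library, and for 1079 genes every brain library lay below.

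**Figure D2:**
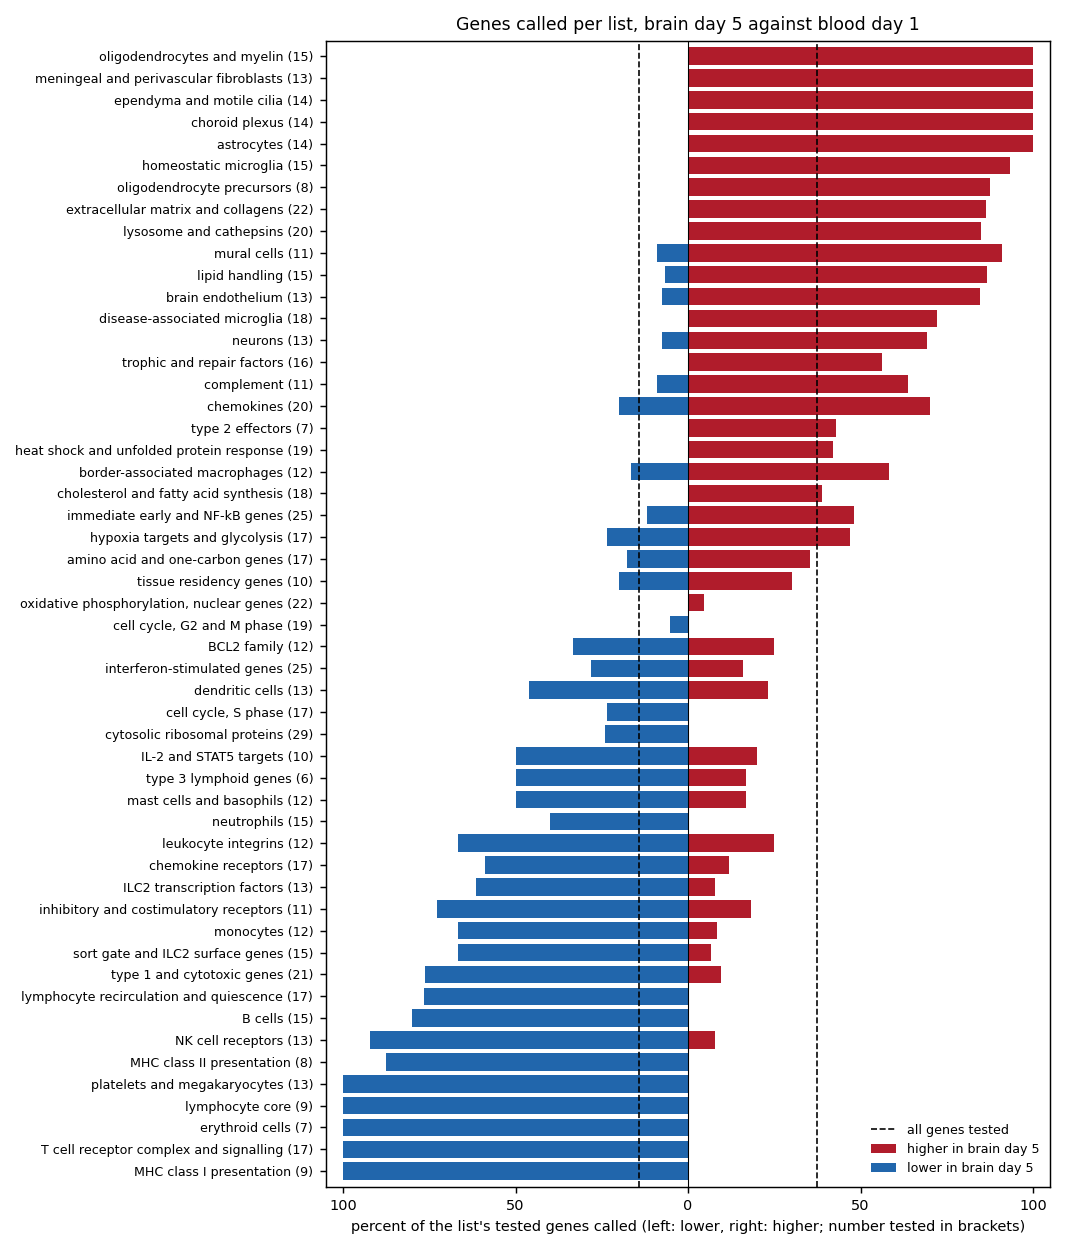
Percent of each list's tested genes that were higher (red, to the right) or lower (blue, to the left) in brain day 5 than in blood day 1, with the number tested in brackets and the shares over all genes tested as dashed lines (37.3% higher, 14.1% lower). Lists of brain cell types stand at the top with up to 14 of 14 or 15 of 15 genes higher, and lymphocyte, platelet and erythroid lists stand at the bottom.

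The 10 largest rises included genes known from choroid plexus, ependyma, meninges and oligodendrocytes. Slc47a1 (chr11:61343401-61378345, mm10), a cation transporter, had normalized counts of 9674, 21138 and 91829 in brain libraries, against 0, 0 and 1.31 in blood day 1 libraries. Blood day 1 libraries held 1 read of it in all, and the ratio of read rates was 121669 (95% exact counting interval 21837 to 4805702). Moxd1, a monooxygenase gene, had normalized counts of 6495, 8789 and 9258 in brain libraries, against 0, 0 and 0 in blood day 1 libraries, and was at least 2261-fold higher against a floor of 3 reads per library. Tekt1, a component of motile cilia, had normalized counts of 3374, 6919 and 41860 in brain libraries, against 0, 0 and 0 in blood day 1 libraries, at least 3356-fold higher. None of the 6 blood libraries reached the lowest brain library for any of these 3 genes. Otx2, a transcription factor that the choroid plexus needs, differed by 12.99 (SE 1.06, adjusted p = 5.44e-10) on the log2 scale, and was highest in brain replicate 4 with 137158. The growth factor gene Ptn differed by 12.87 (adjusted p = 4.88e-09), the potassium channel subunit Kcne4 by 12.83 (adjusted p = 7.16e-10), the IGF binding protein gene Igfbp5 by 12.83 (adjusted p = 2.37e-09), the anion transporter Slc22a8 by 12.67 (adjusted p = 4.4e-11) and the myelin gene Opalin by 12.67 (adjusted p = 1.14e-08). For Otx2 and Kcne4 the 3 brain libraries of batch 2 were the highest, and all blood reads were in replicate 2.

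The 10 largest falls were genes known from platelets, NK and other cytotoxic cells, and red cells. Some were also high in the 5 cultured baseline libraries: Gzma had 388455 to 1764935 normalized counts, Fasl 3251 to 17997 and F2rl2 3976 to 6615. Others were low in the baseline, such as Ncr1 (0 to 12.2), Klre1 (0 to 12.8) and Gp6 (0 to 36.6). Tubb1 (chr2:174450695-174457882), the platelet tubulin, had normalized counts of 0, 0.852 and 5.6 in brain libraries, against 13437, 18072 and 143025 in blood day 1 libraries, a log2 difference of -13.48 (SE 1.24, adjusted p = 4.4e-09). Ppbp, a chemokine stored in platelet granules, had normalized counts of 0, 5.97 and 35 in brain libraries, against 10098, 41065 and 1139791 in blood day 1 libraries, a difference of -13.35 (SE 1.55, adjusted p = 1.57e-07). Blood day 1 replicate 2 was the highest library for both, while the brain libraries were at or near 0. The platelet collagen receptor Gp6 differed by -11.42 (adjusted p = 1.42e-09) and the thrombin receptor partner F2rl2 by -11.04 (adjusted p = 1e-10). Hba-a1, an alpha globin gene, had normalized counts of 0, 400 and 13844 in brain libraries, against 128910, 270671 and 1419166 in blood day 1 libraries. Its groups did not overlap, but the difference was -15.51 within batch 1 and -6 within batch 2. The remaining falls were the NK receptors Ncr1, Klrb1c and Klre1, the death ligand Fasl and the granzyme Gzma, described with their lists.

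**Figure D3:**
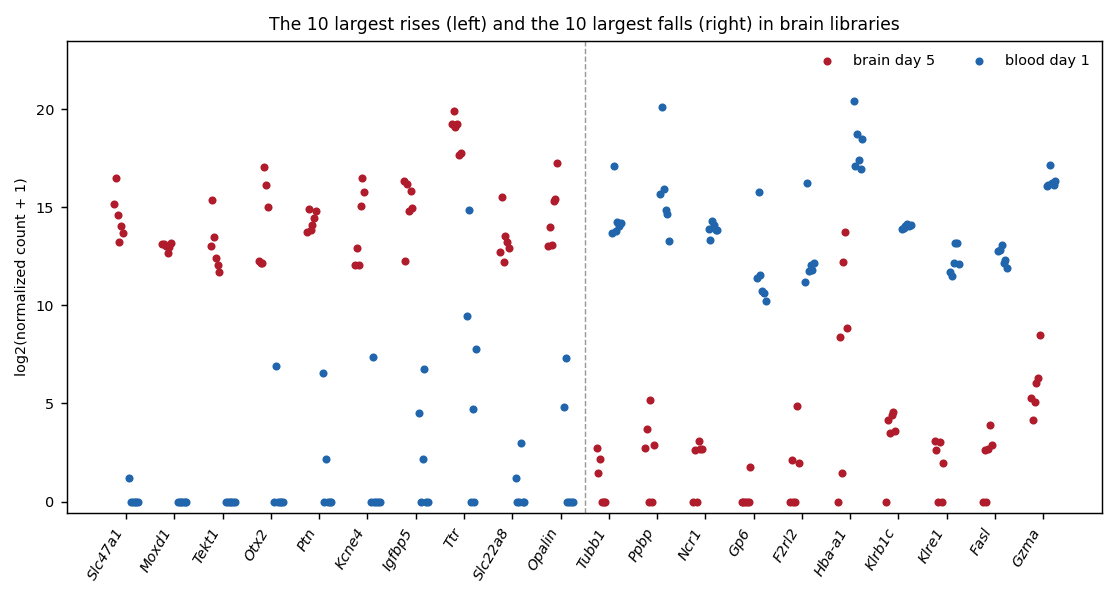
Log2(normalized count + 1) of the 10 largest rises (left of the dashed line) and the 10 largest falls (right) in each of the 6 brain day 5 libraries (red) and 6 blood day 1 libraries (blue). The groups do not overlap for any of the 20 genes, and libraries of the lower group often sit at 0.

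ILC2 transcription factors were lower in brain libraries. Of 13 tested, 8 fell and 1 rose, with a median log2 difference of -2.02, beside 0.77 over all genes. Gata3 (chr2:9857078-9890034), which ILC2s need, had normalized counts of 0, 13.9 and 22.2 in brain libraries, against 591, 1198 and 2357 in blood day 1 libraries, a difference of -6.86 (SE 0.6, adjusted p = 2e-09). Bcl11b, another factor of ILC2 and T cell identity, had normalized counts of 0, 16.4 and 22.4 in brain libraries, against 442, 708 and 953 in blood day 1 libraries, a difference of -6.28 (SE 0.62, adjusted p = 1.29e-08). Every blood library was above every brain library for both. The factors Gfi1 and Tcf7 differed by -5.8 and -3.85. Id2, the inhibitor of helix-loop-helix factors shared by all innate lymphoid cells and many other cells, fell less, to 2970, 4295 and 8644 in brain libraries against 17602, 20584 and 22521 in blood day 1 libraries. Rora, a nuclear receptor that ILC2s need and that brain cells also express, was not called, with normalized counts of 793, 1090 and 1235 in brain libraries, against 46.4, 874 and 1987 in blood day 1 libraries. The Rora groups overlapped, and blood replicates 2 and 6 were the lowest libraries. Zfp36l1, an RNA-binding protein, was the member that rose, and without blood replicates 1, 3, 4 or 5 or without brain replicate 2 there were 2 or 3 such members.

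Surface genes of the donor sort and of ILC2s also fell: 10 of 15 were lower and 1 was higher, with a median of -3.83. Klrg1, one of the markers of the sort, had normalized counts of 1.87, 7.31 and 23.4 in brain libraries, against 2182, 6861 and 10246 in blood day 1 libraries, a difference of -9.41 (SE 0.52, adjusted p = 8.09e-13). Il2ra (CD25) had normalized counts of 0, 7.4 and 15.5 in brain libraries, against 40.2, 171 and 335 in blood day 1 libraries, a difference of -4.51 (SE 0.64, adjusted p = 3.02e-06). Ptprc (CD45), which is also made by microglia, had normalized counts of 700, 1566 and 2785 in brain libraries, against 6022, 15895 and 24992 in blood day 1 libraries, a difference of -3.24 (SE 0.34, adjusted p = 4.11e-08). The groups were separate for all 3, and Ptprc was the only one with a brain library above 50 normalized counts. Icos differed by -5.89 and the interleukin-18 receptor Il18r1 by -7.36. Il7r (CD127), also a marker of the sort, lay at 35.8 to 142 in brain libraries and at 370 to 2456 in blood day 1 libraries. The cultured baseline was not alike for these genes. Il7r lay at 0 to 75.8 and Il18r1 at 0 to 14.4 in its libraries, below every blood day 1 library. Klrg1 lay at 15664 to 50175, Il2ra at 13451 to 21066 and Icos at 895 to 1604 in the baseline. Il1rl1 (chr1:40429570-40465415), the receptor for IL-33 (ST2), was low in both groups, with normalized counts of 3.41, 34.3 and 136 in brain libraries, against 0, 142 and 303 in blood day 1 libraries, and was not called at an adjusted p of 0.643. The Il1rl1 difference was -1.85 (adjusted p = 0.0348) without blood day 1 replicates 2 and 6, brain replicate 2 and baseline replicate 5. For Il1rl1, blood replicates 2 (18.6) and 6 (0) were the lowest blood day 1 libraries, and brain replicate 2 (3.41) was the lowest brain library. Hpgds, the prostaglandin D synthase of ILC2s that microglia also express, was the exception, with normalized counts of 1247, 2693 and 4888 in brain libraries, against 0, 13.9 and 79.8 in blood day 1 libraries, a difference of 7.74 (SE 0.88, adjusted p = 1.11e-07).

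The type 2 cytokine genes Il4 and Il5 were low in both groups. Of 13 genes in the list, 7 were tested, 3 rose and none fell. This share of rises was near the 37.3% of all genes, and the list median was 0.2, beside 0.77 over all genes. Il5 held 1 brain read and 2 blood reads and was not tested, Il13 and Areg were not analysed here, and Il4 had normalized counts of 6.82, 40.9 and 57.1 in brain libraries, against 52.4, 91.3 and 223 in blood day 1 libraries without a call (adjusted p = 0.0657). Penk, which encodes the opioid precursor proenkephalin and is made by several cell types, had normalized counts of 1873, 3437 and 13465 in brain libraries, against 2.35, 58.3 and 133 in blood day 1 libraries, a difference of 6.53 (SE 0.9, adjusted p = 1.91e-06). The brain libraries were all above the blood libraries for Penk, with replicate 2 highest. Calca and Il10 were the other calls, at 59.6 normalized counts or less and 65.9 or less in any brain library. Both calls were lost with edgeR's test on reads, and without brain replicate 5 the list had 2 members higher and 1 lower. Of 6 type 3 genes tested, 3 fell and 1 rose: Ltb, a lymphotoxin, differed by -8.12 and Ccr6 by -5.87, and Il1r1, the interleukin-1 receptor, rose with a difference of 7.94 (adjusted p = 2.74e-05). Without blood day 1 replicate 1, 3 or 4 or blood day 5 replicate 4, which enters the fit, 2 type 3 genes passed as higher. Among 10 residency genes 3 rose and 2 fell (median 0.11), near the shares of all genes (37.3% and 14.1%). Cxcr6, a chemokine receptor of resident lymphocytes, had normalized counts of 0, 30.6 and 81.5 in brain libraries, against 4182, 5063 and 10185 in blood day 1 libraries, a difference of -8.53 (SE 0.93, adjusted p = 6.22e-08). The cultured baseline libraries held 0 to 27.1 of Cxcr6, 1.65 to 217 of Ltb and 0 to 36.1 of Ccr6, below every blood day 1 library. Dusp6, an ERK phosphatase, had normalized counts of 3197, 3486 and 7136 in brain libraries, against 1625, 1941 and 2803 in blood day 1 libraries, a difference of 1.02 (SE 0.26, adjusted p = 0.00182). Itga1 and Rgs1 were the other rises, and both were lost without brain replicate 1 or 3 or blood replicate 6.

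Genes of NK cells and cytotoxic lymphocytes fell steeply, and the NK receptor list had the lowest median of all lists. Of 21 type 1 and cytotoxic genes 16 fell and 2 rose (median -8.25), and of 13 NK receptor genes 12 fell and 1 rose (median -9.91). The type 1 and cytotoxic list took 4.62% to 12.4% of the total in the cultured baseline, against 0.781% to 2.33% in blood day 1 libraries. The NK receptor list took 0.00155% to 0.00977% in the baseline. Ncr1, the NK and ILC1 receptor NKp46, had normalized counts of 0, 5.24 and 7.65 in brain libraries, against 10260, 14852 and 20326 in blood day 1 libraries, a difference of -12.03 (SE 0.68, adjusted p = 1.01e-12). Klrb1c (NK1.1) had normalized counts of 0, 14.1 and 22.4 in brain libraries, against 15097, 16946 and 18155 in blood day 1 libraries, a difference of -10.66 (SE 0.51, adjusted p = 7.09e-14). Gzma, granzyme A, had normalized counts of 17, 51.5 and 359 in brain libraries, against 68901, 75488 and 145581 in blood day 1 libraries, a difference of -10.46 (SE 0.59, adjusted p = 1.06e-12). Each gene was abundant in all 6 blood libraries and close to 0 in the brain libraries, apart from Gzma in brain replicate 6. Tbx21, the master factor of type 1 lymphocytes, had normalized counts of 8.23, 8.97 and 12 in brain libraries, against 7005, 11313 and 17417 in blood day 1 libraries, a difference of -10.03 (SE 0.77, adjusted p = 1.96e-10). Perforin (Prf1) differed by -10.37, Fasl by -10.5, Nkg7 by -10.05, Gzmb by -8.64 and Ifng by -7.26. Brain replicate 5 was the highest brain library for Ifng, with 16. The members that rose are not confined to lymphocytes: the Fc receptor gene Fcgr3 of myeloid and NK cells, the chemokine Ccl3 and the cytokine Tnf. The Ccl3 call was lost without brain replicate 4 or 6 or blood replicate 1, and within batch 1 none of the 3 was called.

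Genes of T cells and of recirculating lymphocytes fell as well. All 17 genes of the T cell receptor complex and its signalling fell, with a median of -8.78, against a background of 14.1%. Cd3e had normalized counts of 0, 10.8 and 16.4 in brain libraries, against 1748, 3586 and 4477 in blood day 1 libraries, a difference of -8.64 (SE 0.52, adjusted p = 3.63e-12). Cd8b1 had normalized counts of 0, 7.85 and 19.1 in brain libraries, against 5524, 7407 and 9703 in blood day 1 libraries, a difference of -9.87 (SE 0.46, adjusted p = 5.12e-14). In the 5 cultured baseline libraries Cd3e lay between 4847 and 19429 and Cd8b1 between 2331 and 4409, so transcripts of both were present in every blood day 1 and baseline library. Of 17 recirculation and quiescence genes, 13 fell and none rose (median -5.84). The GTPase Gimap3 had normalized counts of 33.6, 37.2 and 84.7 in brain libraries, against 20747, 28344 and 32793 in blood day 1 libraries, a difference of -9.17 (SE 0.24, adjusted p = 7.13e-18). Klf2, which drives egress genes and is also high in endothelium, fell by 2.17 only. S1pr1, the egress receptor that endothelium and astrocytes also use, was not called, with normalized counts of 2837, 3565 and 7298 in brain libraries, against 5497, 5628 and 7029 in blood day 1 libraries. For S1pr1 the brain and blood ranges overlapped.

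Inhibitory and costimulatory receptors followed the same direction, with 8 of 11 lower and 2 higher (median -5.35). Cd160 differed by -9.09, Tigit by -7.73, Tnfrsf9 (4-1BB) by -6.76 and Tnfrsf18 (GITR) by -6.73. Cd160 lay at 8.25 to 40.6 in the cultured baseline, below every blood day 1 library. The whole list took 0.231% to 0.556% of the total in the baseline, against 0.0251% to 0.0911% in blood day 1 libraries. The rises were Lag3 and Havcr2, both also known from microglia. Pdcd1 (PD-1) had normalized counts of 55.1, 495 and 1652 in brain libraries, against 0, 796 and 2376 in blood day 1 libraries and was not called. Of 10 targets of IL-2 and STAT5, 5 fell and 2 rose. Il2rb, the shared receptor of IL-2 and IL-15, had normalized counts of 20.7, 28.8 and 50.7 in brain libraries, against 20028, 25542 and 47769 in blood day 1 libraries, a difference of -9.76 (SE 0.25, adjusted p = 6.5e-18). Cdkn1a, the cell cycle inhibitor p21, had normalized counts of 2729, 4122 and 7607 in brain libraries, against 298, 394 and 598 in blood day 1 libraries, a difference of 3.44 (SE 0.39, adjusted p = 1.25e-07). Socs3, a feedback inhibitor of JAK signalling, had normalized counts of 2159, 3540 and 5431 in brain libraries, against 338, 675 and 1437 in blood day 1 libraries, a difference of 2.5 (SE 0.36, adjusted p = 2.98e-06). The groups were separate for these 3 genes, with Il2rb low and Cdkn1a and Socs3 high in all brain libraries.

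Markers of other blood cells were lower in brain libraries. All 13 platelet genes fell (median -9.09), and the list took 0.00336% to 0.0195% of the total in brain libraries, against 0.587% to 6.53% in blood day 1 libraries. Itga2b (CD41) had normalized counts of 103, 165 and 475 in brain libraries, against 17946, 40509 and 594201 in blood day 1 libraries, a difference of -8.12 (SE 0.82, adjusted p = 2.03e-08). Blood replicate 2 carried the 6.53% and was the highest library for Itga2b. All 7 erythroid genes tested fell (median -8.9), with shares of 0.00671% to 0.0668% in brain libraries, against 0.612% to 8.79% in blood day 1 libraries. Alas2, the first enzyme of erythroid heme synthesis, had normalized counts of 31.2, 76.1 and 510 in brain libraries, against 15976, 41420 and 264830 in blood day 1 libraries, a difference of -9.21 (SE 0.91, adjusted p = 1.24e-08). Of 15 B cell genes 12 fell and none rose (median -6.69), with shares of 0.0128% to 0.046% in brain libraries, against 0.192% to 0.895% in blood day 1 libraries. Cd79a, the signalling chain of the B cell receptor, had normalized counts of 27.5, 39.5 and 131 in brain libraries, against 8486, 18508 and 23178 in blood day 1 libraries, a difference of -8.55 (SE 0.59, adjusted p = 3.22e-11). The part of platelet, red cell and B cell transcripts in the lymphoid falls was not tested.

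Other myeloid and granulocyte lists were less uniform. Of 12 monocyte genes 8 fell and 1 rose (median -4.67). Ccr2, the receptor that brings monocytes out of marrow, had normalized counts of 127, 162 and 271 in brain libraries, against 2077, 7832 and 10247 in blood day 1 libraries, a difference of -5.14 (SE 0.44, adjusted p = 1.15e-09). Plac8 differed by -5.79 (adjusted p = 5.07e-09). Every blood library was above every brain library for both genes. Ace, which is made by choroid plexus and endothelium as well as monocytes, was the member that rose, with a difference of 4.12 (adjusted p = 0.000542). Leaving out brain replicate 2, blood day 1 replicate 4 or 5 or blood day 5 replicate 6 gave 2 or 3 monocyte genes higher. Of 15 neutrophil genes 6 fell, but within batch 2 none fell and 2 rose, and edgeR's test on reads called 10 lower. Camp, an antimicrobial peptide of neutrophil granules, had normalized counts of 36.2, 135 and 761 in brain libraries, against 1743, 2584 and 12341 in blood day 1 libraries, with a difference of -5.49 within batch 1 and -3.29 within batch 2. Of 13 dendritic cell genes 6 fell and 3 rose, and 3 fell without blood replicate 1, 3 or 4. The largest rise of that list, Siglech, is also a microglial gene, with normalized counts of 2351, 3059 and 18181 in brain libraries, against 0, 402 and 542 in blood day 1 libraries, a difference of 5.5 (SE 1.15, adjusted p = 0.000334).

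Mast cell and basophil genes depended on the batch. In all, 6 of 12 fell and 2 rose, while 8 fell and none rose within batch 1, and none fell and 3 rose within batch 2. Leaving out brain replicate 1, 3, 4, 5 or 6 or blood day 1 replicate 2 or 6 or blood day 5 replicate 1 or 3 left 1 gene higher and 5 to 8 lower. Fcer1a, the alpha chain of the IgE receptor, had 0 in brain replicates 1 to 3 and 1377, 115 and 714 in replicates 4 to 6, against 228, 487 and 1514 in blood day 1 libraries. Its difference was -9.81 within batch 1 and 0.9 within batch 2. Itgam, which encodes the CD11b integrin of myeloid cells and microglia, had 1.87, 0 and 0 in brain replicates 1 to 3 and 822, 3841 and 4501 in replicates 4 to 6, against 1304, 2092 and 3397 in blood day 1 libraries. Its difference was -10.92 within batch 1 and 0.44 within batch 2. A test of the interaction between group and batch, added after the values were seen, called 54 genes, with an adjusted p of 0.00145 for Itgam and 0.0119 for Fcer1a. The same 3 batch 1 brain libraries held 7176, 31178 and 7895 normalized counts of the microglial gene Tmem119.

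Choroid plexus genes rose. All 14 were higher, against a background of 37.3%, with a median of 10.04, or 9.81 with the 1 gene unread in blood day 1 libraries at its bound. Ttr, the thyroid hormone carrier secreted by the choroid plexus, had normalized counts of 207774, 593328 and 1000727 in brain libraries, against 0, 121 and 30199 in blood day 1 libraries, a difference of 12.69 (SE 2.15, adjusted p = 3.02e-05). Enpp2, which makes lysophosphatidic acid, had normalized counts of 136805, 291432 and 1200310 in brain libraries, against 0, 148 and 30394 in blood day 1 libraries, a difference of 11.27 (SE 1.67, adjusted p = 5.3e-06). Both were highest in brain replicate 2, and blood replicate 2 held more of each than the other blood libraries. The size of these 2 differences depended on the tool: edgeR's test gave 6.17 (adjusted p = 0.0276) for Ttr and 6.21 (adjusted p = 0.009) for Enpp2. Kl, the aging-related hormone co-receptor klotho, had normalized counts of 1407, 4123 and 23191 in brain libraries, against 0, 3.86 and 136 in blood day 1 libraries, a difference of 10.07 (SE 1.08, adjusted p = 4.7e-08). Clic6, an ion channel gene, had normalized counts of 5978, 15527 and 19945 in brain libraries, against 0, 7.11 and 307 in blood day 1 libraries, a difference of 10.91 (SE 1.29, adjusted p = 2.12e-07). Slc13a4, a sulfate transporter, had no read in any blood day 1 library and 1543, 2683 and 4543 in brain libraries, at least 742-fold higher.

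All 14 ependymal and ciliary genes rose, with a median of 9.02, or 8.89 with 5 genes unread in blood day 1 libraries at their bounds. Foxj1, the master factor of motile cilia, had normalized counts of 361, 4139 and 5343 in brain libraries, against 0, 0 and 0 in blood day 1 libraries, at least 960-fold higher. Dnah5, a dynein heavy chain of the cilium, had normalized counts of 307, 1697 and 2653 in brain libraries, against 0, 0 and 0 in blood day 1 libraries, at least 438-fold higher. Ccdc153 was at least 1236-fold and Dynlrb2 at least 1484-fold higher. Brain replicate 2 was the lowest brain library for Foxj1 and Dnah5 and the highest for Ccdc153 and Dynlrb2, so the ciliary genes did not move together across brain libraries.

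All 15 genes of oligodendrocytes and myelin rose (median 8.35). Mbp, myelin basic protein, had normalized counts of 39368, 61539 and 128353 in brain libraries, against 1652, 2384 and 21189 in blood day 1 libraries, a difference of 4.13 (SE 0.56, adjusted p = 1.46e-06). Mbp is also transcribed in blood cells, and among blood libraries it was highest in replicate 2. The transcription factor Olig2 differed by 10.22 (adjusted p = 5.07e-08). Of 8 genes of oligodendrocyte precursors 7 rose (median 7.7, or 7.1 at bounds). Cspg4 (NG2), shared with pericytes, had normalized counts of 654, 4526 and 12152 in brain libraries, against 0, 0 and 0 in blood day 1 libraries, at least 1539-fold higher. Pdgfra, shared with fibroblasts, differed by 10.95 (adjusted p = 4.63e-11), and brain replicate 2 was the lowest brain library for both.

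All 14 astrocyte genes rose (median 9.18). Gfap, the intermediate filament that increases in reactive astrocytes, had normalized counts of 5150, 10028 and 16935 in brain libraries, against 0, 6.17 and 102 in blood day 1 libraries, a difference of 10.31 (SE 1.2, adjusted p = 1.57e-07). Aqp4, the water channel of astrocyte endfeet, had normalized counts of 1315, 2752 and 3994 in brain libraries, against 0, 0 and 6.54 in blood day 1 libraries, a difference of 10.72 (SE 0.95, adjusted p = 2.24e-09). Both groups were separate, and blood libraries other than replicate 2 held fewer than 15 normalized counts of either gene. Of 13 neuronal genes 9 rose and 1 fell (median 3.35), and the list took 0.00363% to 0.0282% of the total in brain libraries, against 0.0499% to 0.427% in blood day 1 libraries, where Nrgn made up most of it. Tubb3, a neuronal tubulin, had normalized counts of 295, 1173 and 1951 in brain libraries, against 15.7, 43.4 and 121 in blood day 1 libraries, a difference of 4.63 (SE 0.59, adjusted p = 6.15e-07). Nrgn, a synaptic calmodulin-binding protein that platelets also carry, was the member that fell, with normalized counts of 15.5, 47.3 and 128 in brain libraries, against 9766, 12666 and 184002 in blood day 1 libraries. For Nrgn the highest library was blood replicate 2, which was also the highest for platelet genes, and without blood replicate 6 a 2nd neuronal gene passed as lower. Within batch 1 2 neuronal genes were higher, within batch 2 10 were, and edgeR's test on reads called 4.

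Vascular and meningeal genes rose. Of 13 endothelial genes 11 rose and 1 fell (median 4.36). Slco1a4, a transporter of the blood-brain barrier, had normalized counts of 5278, 8591 and 55622 in brain libraries, against 0, 17 and 421 in blood day 1 libraries, a difference of 9.94 (SE 1.06, adjusted p = 4.52e-08). Tek, the angiopoietin receptor, differed by 7.91 (adjusted p = 4.79e-07). Pecam1, which leukocytes and platelets also carry, was the member that fell, with normalized counts of 201, 1032 and 2698 in brain libraries, against 1637, 2371 and 14034 in blood day 1 libraries (adjusted p = 0.00894), and blood replicate 2 was its highest library. The Pecam1 call was lost within batch 2 (-0.69 (adjusted p = 0.353)). Of 11 mural cell genes 10 rose and 1, Kcnj8, fell (median 6.76, or 5.69 with 3 genes at their bounds). Rgs5, a pericyte gene, had normalized counts of 462, 4714 and 10535 in brain libraries, against 0, 3.93 and 21.1 in blood day 1 libraries, a difference of 9.77 (SE 1.08, adjusted p = 7.12e-08). All 13 genes of meningeal and perivascular fibroblasts rose (median 10.35, or 10.22 at bounds). Igf2, insulin-like growth factor 2, had normalized counts of 1345, 10604 and 32302 in brain libraries, against 0, 0 and 6.54 in blood day 1 libraries, a difference of 12.35 (SE 0.81, adjusted p = 1.47e-11). Lum, a collagen-binding proteoglycan, had normalized counts of 1661, 2508 and 6380 in brain libraries, against 0, 1.76 and 40.2 in blood day 1 libraries, a difference of 9.88 (SE 0.97, adjusted p = 1.27e-08). Fmod was unread in blood day 1 libraries and at least 1195-fold higher. Of 22 matrix genes 19 rose and none fell (median 8.59). Col4a1, a basement membrane collagen, had normalized counts of 191, 7962 and 11525 in brain libraries, against 0, 2.41 and 83.6 in blood day 1 libraries, a difference of 9.89 (SE 1.11, adjusted p = 9.74e-08). Col1a1, the main fibrillar collagen, differed by 11.58 (adjusted p = 2.65e-07). Brain replicate 2 had the lowest count of all brain libraries for Col4a1, Col1a1 and Igf2 and the highest for Lum.

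Microglial genes rose. Of 15 homeostatic genes 14 rose and none fell (median 5.41), and the list took 1.02% to 3.03% of the total in brain libraries, against 0.0665% to 0.128% in blood day 1 libraries. Tmem119, a marker that separates microglia from other macrophages, had normalized counts of 7176, 16383 and 31178 in brain libraries, against 5.9, 60 and 310 in blood day 1 libraries, a difference of 8.32 (SE 0.78, adjusted p = 5.52e-09). Sall1, the transcription factor of microglial identity, had normalized counts of 908, 2243 and 16567 in brain libraries, against 0, 0 and 1.31 in blood day 1 libraries, and its ratio of read rates was 21580 (95% exact counting interval 3873 to 852397). Trem2, the lipid receptor of microglia, had normalized counts of 8664, 13895 and 35514 in brain libraries, against 146, 273 and 1291 in blood day 1 libraries, a difference of 5.41 (SE 0.47, adjusted p = 1.81e-09). The groups were separate for all 3, and Sall1 was highest in brain replicates 1 and 3. P2ry12, a microglial ADP receptor that platelets also carry, was not called, with normalized counts of 1599, 5127 and 19355 in brain libraries, against 501, 1986 and 38633 in blood day 1 libraries. Its highest library was blood replicate 2, and the difference was 1.68 (adjusted p = 0.0214) without that library. Csf1r, the receptor that microglia need to survive, was chosen after its values were seen, and had normalized counts of 21444, 37175 and 104040 in brain libraries, against 2575, 4686 and 8888 in blood day 1 libraries, a difference of 3.24 (SE 0.39, adjusted p = 2.53e-07).

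Of 18 genes of the disease-associated microglia state 13 rose and none fell (median 3.69), with shares of 4.27% to 12% in brain libraries, against 0.818% to 1.77% in blood day 1 libraries. Apoe, which carries lipids between brain cells, had normalized counts of 266811, 406916 and 980483 in brain libraries, against 8336, 11948 and 52868 in blood day 1 libraries, a difference of 4.93 (SE 0.38, adjusted p = 2.18e-10). Spp1, osteopontin, had normalized counts of 22426, 105276 and 492281 in brain libraries, against 575, 933 and 7068 in blood day 1 libraries, a difference of 6.44 (SE 0.65, adjusted p = 1.96e-08). Gpnmb, a glycoprotein of lipid-laden phagocytes, had normalized counts of 11780, 39403 and 73038 in brain libraries, against 85.5, 184 and 873 in blood day 1 libraries, a difference of 7.46 (SE 0.73, adjusted p = 1.18e-08). All 3 genes were abundant in every brain library, with Apoe highest in replicate 6 and Spp1 and Gpnmb highest in replicate 2. Without brain replicate 2 or 6, 1 or 2 members passed as lower. Of 12 genes of border-associated macrophages 7 rose and 2 fell, the platelet chemokine gene Pf4 and the clotting factor gene F13a1. Mrc1, the mannose receptor, had normalized counts of 85.2, 858 and 2583 in brain libraries, against 0, 9.86 and 61 in blood day 1 libraries, a difference of 6.49 (SE 1.09, adjusted p = 2.72e-05). Stab1, a scavenger receptor, differed by 9.63 (adjusted p = 1.91e-07). Cd163, a hemoglobin scavenger receptor, was not called (normalized counts of 3.41, 190 and 379 in brain libraries, against 0, 91.1 and 372 in blood day 1 libraries).

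Phagocyte programs rose with these lists, and since microglia and macrophages use them, the part of those cells in each program was not tested. Of 11 complement genes 7 rose and 1, properdin (Cfp), fell (median 3.84). C1qa, a chain of the first complement component, had normalized counts of 25101, 41515 and 100976 in brain libraries, against 47.2, 217 and 2164 in blood day 1 libraries, a difference of 7.61 (SE 0.9, adjusted p = 2.05e-07). C3, the central component, was not called (normalized counts of 145, 429 and 835 in brain libraries, against 195, 733 and 824 in blood day 1 libraries). Of 20 lysosomal genes 17 rose and none fell (median 1.76), with 11 higher within batch 1. Ctsd, cathepsin D, had normalized counts of 386385, 516121 and 1149455 in brain libraries, against 43667, 65735 and 294150 in blood day 1 libraries, a difference of 2.88 (SE 0.38, adjusted p = 1.11e-06). Ctsl, cathepsin L, had normalized counts of 21235, 25663 and 54968 in brain libraries, against 316, 743 and 3957 in blood day 1 libraries, a difference of 5.21 (SE 0.44, adjusted p = 1.13e-09). Every brain library was above every blood library for both proteases, and blood replicate 2 was the highest blood library. Of 15 lipid handling genes 13 rose and 1 fell. Abca1, which exports cholesterol, had normalized counts of 1382, 4519 and 10740 in brain libraries, against 206, 280 and 541 in blood day 1 libraries, a difference of 3.84 (SE 0.54, adjusted p = 2.8e-06). Pltp, a phospholipid transfer protein, differed by 4.54 (adjusted p = 1.73e-10). The member that fell was Cd36, a fatty acid receptor that platelets carry, and it was not called as lower without brain replicate 1, 4, 5 or 6 or blood replicate 1, 4 or 5.

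Antigen presentation genes ran the other way. Of 8 genes of MHC class II presentation 7 fell (4 within batch 1) and none rose (median -3.32). Cd74, the invariant chain, had normalized counts of 5614, 9234 and 22746 in brain libraries, against 98142, 161712 and 204446 in blood day 1 libraries, a difference of -3.97 (SE 0.52, adjusted p = 9.06e-07). H2-Ab1, a class II beta chain, had normalized counts of 3142, 4594 and 12797 in brain libraries, against 39165, 63931 and 74906 in blood day 1 libraries, a difference of -3.49 (SE 0.52, adjusted p = 5.46e-06). Class II is abundant in B cells, whose markers were 0.192% to 0.895% of the blood libraries. The part of B cells in these falls was not tested. All 9 genes of MHC class I presentation tested fell (median -2.22). H2-K1 had normalized counts of 11414, 15976 and 26603 in brain libraries, against 94225, 112110 and 150346 in blood day 1 libraries, a difference of -2.78 (SE 0.24, adjusted p = 1.95e-09). Psmb8, a subunit of the immunoproteasome, had normalized counts of 1403, 1776 and 5336 in brain libraries, against 12028, 18908 and 21673 in blood day 1 libraries, a difference of -2.9 (SE 0.35, adjusted p = 2.46e-07). The brain libraries still held at least 1403 normalized counts of Cd74, H2-Ab1, H2-K1 and Psmb8, unlike the lymphocyte genes.

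By the number of genes called, chemokines and their receptors moved in opposite directions. Of 20 chemokine genes 14 rose and 4 fell (median 5.8). The chemokine list nevertheless took 0.118% to 0.297% of the total in brain libraries, against 0.254% to 0.649% in blood day 1 libraries. Ccl2, the ligand of CCR2 that draws monocytes, had normalized counts of 579, 748 and 2863 in brain libraries, against 0, 20.8 and 89.1 in blood day 1 libraries, a difference of 5.95 (SE 1.02, adjusted p = 3.31e-05). Cxcl12, the ligand of CXCR4, had normalized counts of 1206, 4857 and 12696 in brain libraries, against 0, 50 and 344 in blood day 1 libraries, a difference of 6.46 (SE 1.29, adjusted p = 0.000197). Ccl12 had normalized counts of 293, 1550 and 4830 in brain libraries, against 0, 0 and 5.86 in blood day 1 libraries, a difference of 9.4 (SE 0.86, adjusted p = 4.09e-09). Cxcl12 was highest in the 3 brain libraries of batch 1, while Ccl12 was highest in replicate 6, and no blood library reached the brain range of any of them. Xcl1, a chemokine of NK and CD8 T cells, had normalized counts of 0, 0.852 and 19.7 in brain libraries, against 2096, 2776 and 4261 in blood day 1 libraries, a difference of -9.95 (SE 0.67, adjusted p = 1.81e-11). Ccl5, Ccl6 and Ccl9 were the other falls.

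Of 17 chemokine receptors 10 fell and 2, Cx3cr1 and Ackr1, rose (median -3.59). Ccr7, which guides lymphocytes to lymph nodes, had normalized counts of 9.34, 37.8 and 144 in brain libraries, against 3806, 5907 and 13583 in blood day 1 libraries, a difference of -7.48 (SE 0.97, adjusted p = 8.59e-07). Cxcr3, the receptor of type 1 lymphocytes for CXCL9 and CXCL10, had normalized counts of 25.8, 89.7 and 140 in brain libraries, against 3603, 7091 and 13858 in blood day 1 libraries, a difference of -6.73 (SE 0.63, adjusted p = 5.11e-09). Cx3cr1, the fractalkine receptor of microglia and patrolling monocytes, had normalized counts of 9058, 16838 and 27807 in brain libraries, against 1553, 2163 and 3769 in blood day 1 libraries, a difference of 2.75 (SE 0.29, adjusted p = 4.46e-08). Blood libraries were higher for Ccr7 and Cxcr3 and lower for Cx3cr1 without overlap. The cultured baseline libraries held 0 to 204 of Ccr7, 1.65 to 65.1 of Cxcr3 and 180 to 345 of Cx3cr1, below every blood day 1 library. Cxcr4 was not called, with normalized counts of 44.3, 179 and 590 in brain libraries, against 44.9, 133 and 459 in blood day 1 libraries. Of 12 leukocyte integrin genes 8 fell and 3 rose. Itgal, the alpha chain of LFA-1, had normalized counts of 52.8, 171 and 226 in brain libraries, against 7714, 10765 and 33552 in blood day 1 libraries, a difference of -6.54 (SE 0.41, adjusted p = 5.86e-12). Itgb7, which pairs with the alpha 4 chain for gut homing, had normalized counts of 139, 159 and 276 in brain libraries, against 17104, 31950 and 46908 in blood day 1 libraries, a difference of -7.38 (SE 0.35, adjusted p = 6.32e-14). Both were high in all blood libraries. The integrin rises were Itga1, Itgav and Itgb5, and leaving out brain replicate 1, brain replicate 3 or blood replicate 2 left 1 of them.

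Interferon-stimulated genes did not move as a group. Of 25 tested 4 rose and 7 fell, with a median of -0.21, and edgeR's test on reads called 1 higher and 7 lower. Rsad2, which encodes the antiviral enzyme viperin, had normalized counts of 108, 275 and 428 in brain libraries, against 2000, 5763 and 10476 in blood day 1 libraries, a difference of -4.47 (SE 0.97, adjusted p = 0.00049). Cxcl10, an interferon-induced chemokine, had normalized counts of 407, 626 and 1662 in brain libraries, against 15.7, 65.4 and 214 in blood day 1 libraries, a difference of 3.51 (SE 1.02, adjusted p = 0.00624), and was not called within batch 2. Ifit1 was not called (normalized counts of 347, 775 and 1795 in brain libraries, against 83.1, 821 and 3412 in blood day 1 libraries). Rsad2 was thus lower and Cxcl10 higher in all 6 brain libraries than in any blood day 1 library. Isg15, another member, was among the genes called by the interaction test between group and batch, with a negative log2 difference within batch 2 only.

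Because interferon-stimulated genes are regulated through a shared promoter element, the RefSeq promoters of the list were searched on both strands for TTTC, any 2 bases and TTTC again (GRCm38.p6, 250 bases before to 50 after each gene's start). A promoter was given for 20 list genes, and 12 of them (60%) held the letters, against 3.99% of 27025 genes with a promoter. The 250 bases before the start are shown for the 2 genes that moved in opposite directions, with the match in capitals, on the minus strand at chr12:26456453-26456702 for Rsad2 and on the minus strand at chr5:92348890-92349139 for Cxcl10.
Rsad2: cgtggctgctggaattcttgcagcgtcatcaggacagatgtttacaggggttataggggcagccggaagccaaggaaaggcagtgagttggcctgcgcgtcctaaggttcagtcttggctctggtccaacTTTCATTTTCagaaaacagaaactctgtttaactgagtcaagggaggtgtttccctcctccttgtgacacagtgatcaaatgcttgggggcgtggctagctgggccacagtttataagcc
Cxcl10: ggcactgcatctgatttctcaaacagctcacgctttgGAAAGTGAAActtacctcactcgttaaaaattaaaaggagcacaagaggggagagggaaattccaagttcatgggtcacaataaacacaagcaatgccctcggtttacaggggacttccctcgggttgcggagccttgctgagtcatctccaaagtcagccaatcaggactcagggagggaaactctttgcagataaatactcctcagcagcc
The match began 120 bases before the start of Rsad2 and 213 bases before that of Cxcl10. Both promoters therefore held the letters while the transcripts differed in direction. Of 5 other motifs searched in other lists, AGATAA was held by 4 of 11 platelet genes (12.7% of all genes), TGANTCA by 2 of 19 immediate early genes (8.97%) and TGTGGTTT by 1 of 16 NK receptor genes (2.11%). GAGGAAGT was held by 0 of 11 microglial genes (3.69%), and the X-box of RFX factors by 0 of 11 ciliary genes (0.0851%). Each motif was searched in 1 list only, and the matches describe letters in these windows.

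Some genes of the immediate early response and of NF-kB rose. Of 25 tested 12 rose and 3 fell (median 1.7, beside 0.77 over all genes). These shares were not far from the 37.3% higher and 14.1% lower of all genes. Fos, a subunit of AP-1, had normalized counts of 34892, 55814 and 125048 in brain libraries, against 1175, 2044 and 2510 in blood day 1 libraries, a difference of 4.88 (SE 0.42, adjusted p = 1.23e-09). Jun, its partner, had normalized counts of 15118, 21113 and 27470 in brain libraries, against 305, 493 and 771 in blood day 1 libraries, a difference of 5.41 (SE 0.27, adjusted p = 1.8e-13). Egr1 differed by 5.25 (adjusted p = 1.54e-08) and Atf3 by 4.76 (adjusted p = 9.91e-05). All brain libraries lay above all blood day 1 libraries for these 4 genes. Nfkbia, the NF-kB inhibitor, was not called (normalized counts of 5780, 8697 and 12767 in brain libraries, against 4471, 4963 and 5800 in blood day 1 libraries). Immediate early genes also respond to tissue dissociation, and how brain and blood cells were dissociated is not given in the sources used here.

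Stress and metabolic lists had medians of 0.66 to 1.38, beside 0.77 over all genes. Of 19 heat shock and unfolded protein genes 8 rose and none fell, a share of rises near the background of 37.3%, while upper quartile scaling gave 4 higher and 3 lower. Hspb1, a small heat shock protein also known from astrocytes and endothelium, had normalized counts of 271, 406 and 621 in brain libraries, against 0, 0.586 and 12.4 in blood day 1 libraries, a difference of 7.64 (SE 0.64, adjusted p = 6.88e-10). Without brain replicate 2 or blood replicate 5, 1 gene of this list passed as lower. Of 17 hypoxia and glycolysis genes 8 rose and 4 fell (median 0.79). Slc2a1, the glucose transporter GLUT1 of brain endothelium and many other cells, had normalized counts of 9521, 10610 and 21724 in brain libraries, against 1170, 1829 and 2520 in blood day 1 libraries, a difference of 2.75 (SE 0.24, adjusted p = 2.23e-09). Without brain replicate 6 the list had 1 fall and without blood replicate 2 it had 2. Of 18 sterol and fatty acid synthesis genes 7 rose and none fell, a share of rises near that of all genes. Sqle, an enzyme of cholesterol synthesis, had normalized counts of 1308, 1449 and 3190 in brain libraries, against 161, 408 and 502 in blood day 1 libraries, a difference of 2.32 (SE 0.35, adjusted p = 7.93e-06). Scd2, a fatty acid desaturase, had normalized counts of 4502, 18145 and 24608 in brain libraries, against 313, 399 and 1036 in blood day 1 libraries, a difference of 4.77 (SE 0.47, adjusted p = 1.19e-08). Of 17 amino acid and one-carbon genes 6 rose and 3 fell, close to the background. Slc7a11, the cystine importer, had normalized counts of 448, 839 and 1382 in brain libraries, against 45.7, 63.1 and 245 in blood day 1 libraries, a difference of 3.43 (SE 0.54, adjusted p = 1.2e-05).

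Housekeeping, cell cycle and BCL2 family lists held a smaller share of rises than the 37.3% of all genes, and in 3 of the 5 lists the share of falls was above 14.1%. Of 22 nuclear genes of oxidative phosphorylation 1 rose (median 0.12), which was Atp5g1, and the call was lost with upper quartile scaling. Leaving out brain replicate 1, 3 or 5 or blood replicate 2 gave 2 rises, and leaving out brain replicate 2 or 6 or blood replicate 1 or 5 gave 1 rise and 1 fall. Of 29 ribosomal protein genes 7 fell and none rose (median -0.46), while 17 fell with upper quartile scaling. Of 19 genes of G2 and M phase 1 fell, Ube2c, and 2 fell without brain replicate 6 or blood replicate 2, while 1 rose without brain replicate 4. Mki67, the proliferation marker, had normalized counts of 79.8, 433 and 843 in brain libraries, against 0, 138 and 678 in blood day 1 libraries and was not called. Of 17 S phase genes 4 fell. Cdt1, a replication licensing factor, had normalized counts of 194, 360 and 479 in brain libraries, against 635, 920 and 1682 in blood day 1 libraries, a difference of -1.6 (SE 0.34, adjusted p = 0.000466). Of 12 BCL2 family genes 4 fell and 3 rose, and 1 rose without brain replicate 2. Bid, a pro-apoptotic member, had normalized counts of 305, 663 and 1662 in brain libraries, against 1816, 3019 and 10471 in blood day 1 libraries, a difference of -2.35 (SE 0.43, adjusted p = 6.7e-05). Only 1 mitochondrially encoded gene was measured, and it was not called.

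Of 16 trophic and repair factors tested 9 rose and none fell (median 2.88). Gas6, a ligand of the receptors AXL and MERTK, had normalized counts of 14068, 16932 and 25529 in brain libraries, against 3.44, 12.4 and 115 in blood day 1 libraries, a difference of 9.86 (SE 0.89, adjusted p = 3.01e-09). Igf1, insulin-like growth factor 1, had normalized counts of 1182, 2632 and 4089 in brain libraries, against 2.99, 16.8 and 307 in blood day 1 libraries, a difference of 6.7 (SE 0.89, adjusted p = 1.23e-06). Both were higher in every brain library than in any blood day 1 library. Il33 (chr19:29925114-29960718), the cytokine that activates ILC2s and is stored in nuclei of oligodendrocytes and astrocytes, was chosen after its values were seen, with normalized counts of 3826, 5978 and 16762 in brain libraries, against 0, 11.5 and 542 in blood day 1 libraries, a difference of 8.51 (SE 1.08, adjusted p = 6.16e-07). The brain libraries thus held the transcript of the ILC2-activating cytokine at 3826 normalized counts or more, while that of its receptor Il1rl1 stayed at 136 or less. In the 5 cultured baseline libraries Il1rl1 lay at 0 to 5.42, so its low count does not set brain libraries apart from the cultured cells.

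The 6 brain libraries differed among themselves. The choroid plexus list took 1.57% of the total in replicate 6 and 7.96% in replicate 2. The disease-associated microglia list took 4.27% in replicate 5, 10.1% in replicate 2 and 12% in replicate 6. Oligodendrocyte precursor genes took 0.0161% in replicate 2 and 0.0458% to 0.111% in the other libraries, and matrix genes took 0.345% in replicate 2 and 1.05% to 1.73% in the others. Replicate 2 was thus high for choroid plexus and low for precursor and matrix genes, and replicate 6 was high for both microglial lists. The lymphocyte core stayed between 0.000491% and 0.00088% in all 6.

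**Figure D4:**
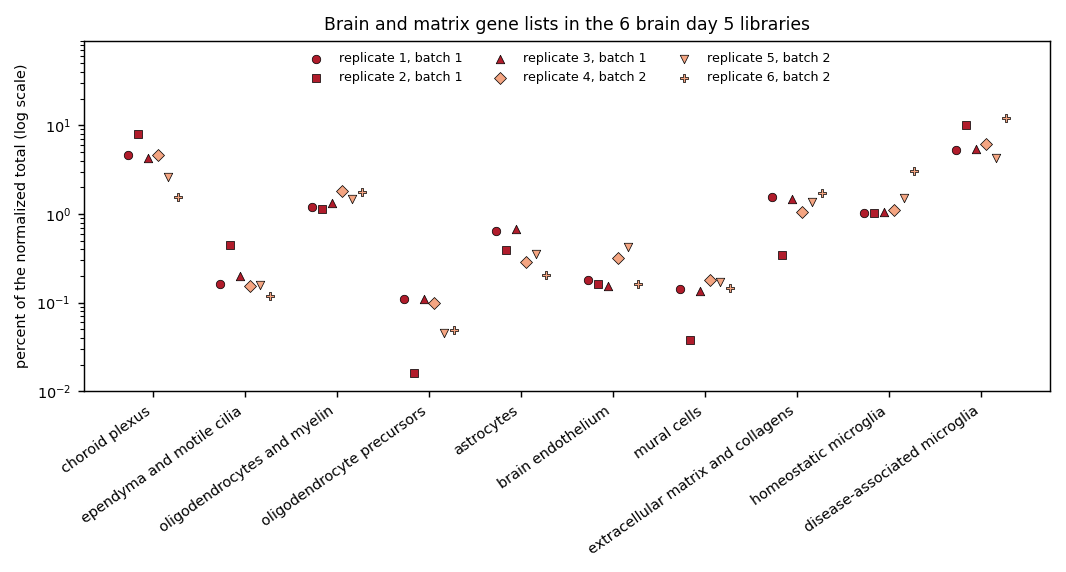
Percent of the normalized total (log scale) taken by 10 brain and matrix gene lists in each brain day 5 library, with batch 1 in dark and batch 2 in light red and 1 symbol per replicate. Replicate 2 is highest for choroid plexus (7.96%) and ependyma and lowest for oligodendrocyte precursors (0.0161%), and replicate 6 is highest for microglia (3.03% homeostatic, 12% disease-associated).

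Since the contrast joins tissue and day, the same libraries were also set against blood day 5. Brain day 5 against blood day 5 gave 5123 genes higher (33.6%) and 2183 lower (14.3%), with a median log2 difference of 0.47. Blood day 5 against blood day 1 gave 15 genes higher (0.0982%) and 1 lower (0.00655%), with a median of 0.12. In that blood comparison 1167 genes had an unadjusted p under 0.05, and DESeq2 called 65 higher and 68 lower. These contrasts share libraries with the first one, so values are given side by side only. Gata3 differed by -6.86 between brain day 5 and blood day 1, by -7.26 between brain day 5 and blood day 5 and by 0.41 between blood day 5 and blood day 1. For Klrg1 the 3 differences were -9.41, -10.03 and 0.62, and for Ttr 12.69, 13.05 and -0.36. For Tmem119 they were 8.32, 6.68 and 1.64. For these 4 genes both contrasts with brain were large and had the same sign. The neutrophil list had a median of -2.1 against blood day 1, -5 against blood day 5 and 2.56 between blood day 5 and blood day 1. No neutrophil gene was called between the blood groups. Immediate early genes had a median of 1.7 against blood day 1 and 0.15 against blood day 5, and 4 of 25 were higher in blood day 5 than in blood day 1. Fos was 1 of these, with 4768, 10175 and 16136 in blood day 5 libraries, against 1175, 2044 and 2510 in blood day 1 libraries.

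**Figure D5:**
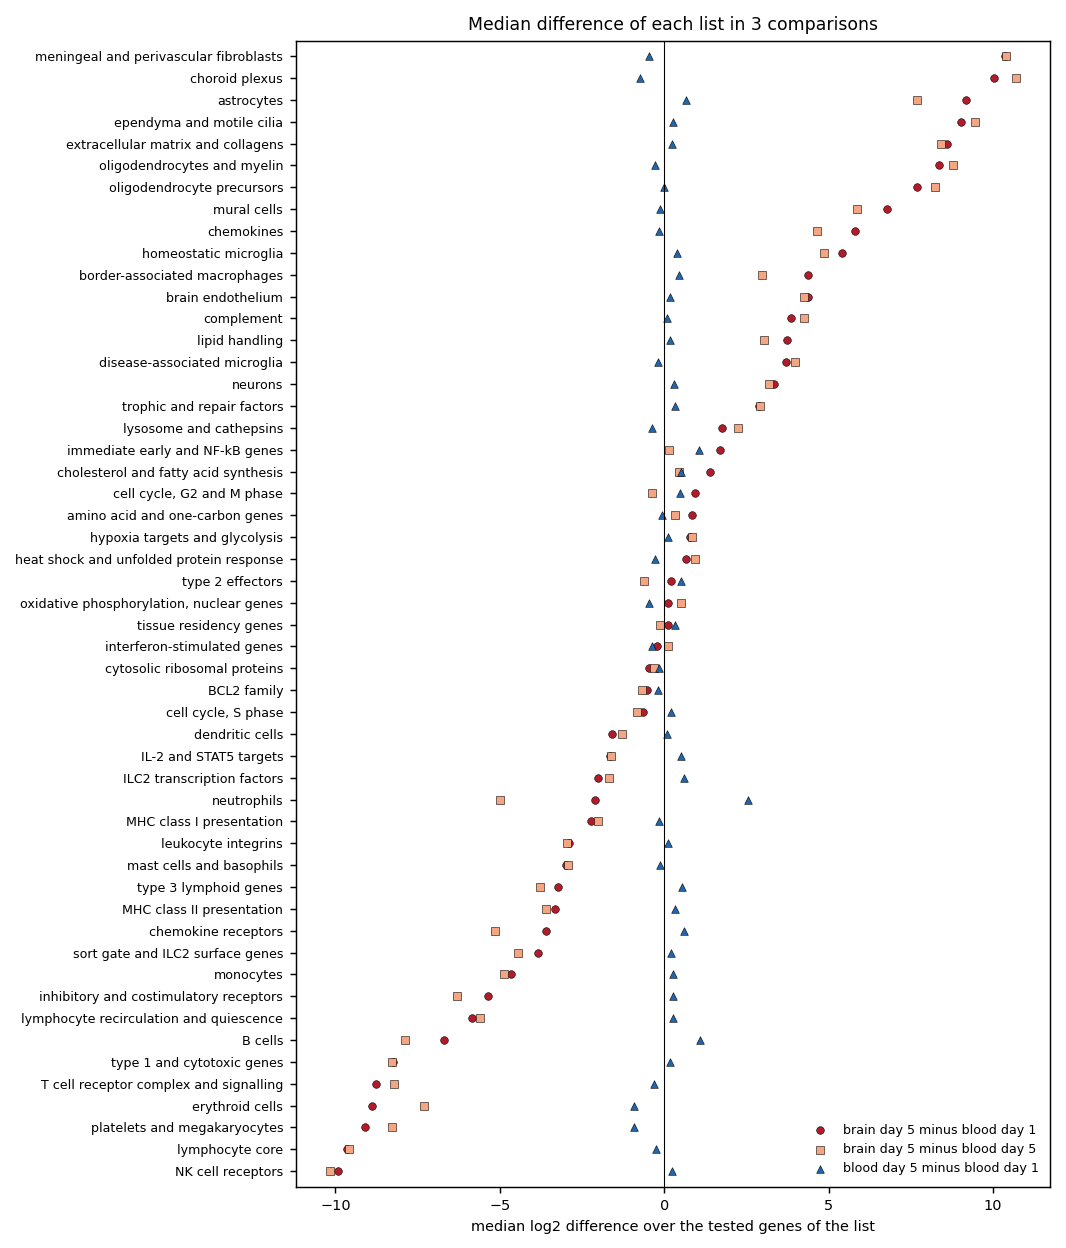
Median log2 difference over the tested genes of each list for brain day 5 minus blood day 1 (dark red circles), brain day 5 minus blood day 5 (light red squares) and blood day 5 minus blood day 1 (blue triangles). Against blood day 1 the medians run from 10.35 for fibroblasts to -9.91 for NK cell receptors, and between the blood groups the neutrophil list has the highest median, 2.56.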

How the data were processed

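The labels give 23 poly(A) RNA sequencing libraries in 2 batches. The table deposited by the authors holds normalized counts (signal values), gene read counts divided by 1 factor per library. Per the submitters' processing notes, fastp, HISAT2 2.0.5 and mm10 were used, and the counting tool and annotation were not given in the sources used here. All values in each library (100%) were whole multiples of 1 read within a tolerance of 0.1 reads, so whole reads were recovered for counting intervals and for edgeR 4.0.16 (4144 genes higher, 3072 lower) and DESeq2 1.42.0 (5468 higher, 2219 lower) as further tests. The edgeR and DESeq2 tests are alternatives and not the main result.

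The main test was limma 3.58.1 (R 4.3.3) on log2(value + 1), which understates changes of low genes, with group and batch as terms and all 23 libraries. Genes entered (15268 of 19945) if 5 or more libraries reached a value of 10, and p-values were adjusted by Benjamini-Hochberg over all of them at 0.05. Log2 differences are brain day 5 minus blood day 1. A scaling on the lymphocyte core list had been planned and gave 15159 genes higher and 3 lower, since that list was near 0 in brain libraries; it is not used. A floor of 3 reads per library stood in for groups with no reads, and 95% exact intervals were given for 1 to 3 reads. Intervals and floors cover counting error only, since reads carry no molecular identifiers.

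Named genes were the 10 largest rises and the 10 largest falls (higher group's mean 100 or more, same sign in both batches, no predicted genes or receptor segments), and from each of 53 lists its defining genes and up to 4 more called members. Il33, Csf1r and the genes under other observations, and list members named as the exceptions to a count, were chosen after their values were seen. The comparison, members and lists were chosen with earlier results of these data known. Coordinates are from GENCODE M21 (19931 of 19945 symbols matched). Alternatives covered pseudocount, filter, scaling, samples, batch, weights, tools and each brain or blood replicate left out. Values of some list members are not reported here.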

Additional observations from a re-analysis of the deposited data

Results flagged for a closer look

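In 49 of 316 combinations of a gene named with values and a group, the highest or the lowest of the 6 libraries lay far from the other 5 by Dixon's 95% criterion. Chance flags about 1 in 20 such groups. All values are normalized counts, and their cause was not tested.

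Among brain libraries, replicate 2 was the low one for Cd163 (3.41), Col4a1 (191), Dnah5 (307), Foxj1 (361), Il1r1 (327), Prf1 (0), Stab1 (339) and Tnf (20.5), and the high one for Il33 (16762). Brain replicate 1 was low for Cd3e, Klrb1c and Tnfrsf9 (0 each) and high for Il5 (1.87, a single read). Brain replicate 3 was low for Cd8b1 (0), replicate 5 for Gpnmb (11780) and replicate 6 for Gata3 (0). Brain replicate 4 was high for Cd79a (131), replicate 5 for Apol11b (42.1) and replicate 6 for Gp6 (2.44).

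Among blood day 1 libraries, replicate 2 was the high one for the platelet genes Gp6 (56871), Itga2b (594201), Pf4 (198237) and Tubb1 (143025). It was also high for F2rl2 (78154), Nrgn (184002), Pecam1 (14034), Apoe (52868), Bid (10471), Col1a1 (585), Hspb1 (12.4), Kcne4 (164), Otx2 (118) and Syn2 (68.1). It was low for C3 (195), Cd79a (8486) and Mki67 (0). Blood replicate 1 was high for Aqp4 (6.54), Camp (12341), Ptn (92.9), Tek (5.23) and Tph1 (6.54), and by a single read (1.31) for Sall1 and Slc47a1. Blood replicate 3 was high for Gzma (145581) and low for Penk (2.35). Blood replicate 5 was low for Ltb (5048) and high for S1pr1 (7029), and replicate 6 was low for Cd163 (0) and Pdcd1 (0).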

How the results depend on the processing

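The number of genes called between brain day 5 and blood day 1, and between brain day 5 and blood day 5, stayed within 1.5 times its value under every alternative run except the scaling on the lymphocyte core (15159 higher and 3 lower against blood day 1), which is left out of what follows. With each brain or blood replicate left out in turn (those of blood day 5 added after seeing the data), 5352 to 6065 genes were higher and 1994 to 2268 lower against blood day 1. Of 145 genes called and named with values, 130 kept direction and call under every alternative that gave a value. Itgam (0.44) and Fcer1a (0.9) reversed within batch 2. The blood day 5 against blood day 1 count of 16 moved to 7 in batch 1, 80 in batch 2, 357 with library weights, 9 with the closest libraries averaged, 5 with edgeR and 133 with DESeq2, and ranged from 6 (without blood day 1 replicate 5) to 21 with 1 brain or blood replicate left out, and was 10 without blood day 5 replicate 5 or 6; the cause was not tested. The median log2 difference over all genes was 0.77, 0.61 with equal totals, 0.39 with upper quartile scaling and 0.20 with edgeR, so differences under about 1 depend on the scaling. DESeq2 gave no adjusted p for 10 called genes.

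Same-numbered brain and blood libraries did not deviate together (correlations -0.086 to 0.034), so the numbers were not read as pairs. With the replicate number as a block, 5133 genes were higher and 1795 lower, and 6 called genes named with values lost their call.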

Other observations

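Some genes differed by batch in a way that touched brain and blood libraries unequally, and all genes here were chosen after their values were seen. The interaction test between group and batch called 54 genes, of which 18 were variable segments of immunoglobulin or T cell receptor genes. Ighv1-81, a heavy chain segment, had 0 in all brain libraries, against 0 in the 3 batch 1 and 2441, 1191 and 1076 in the 3 batch 2 blood day 1 libraries. Apol11b had at most 42.1 in brain libraries, against 0 in batch 1 and 7074, 6746 and 3868 in batch 2 blood day 1 libraries. In all, 38 genes were at 0 in each of the 12 batch 1 libraries and averaged at least 100 over the 11 batch 2 libraries, and 0 genes showed the opposite. Tph1, an enzyme of serotonin synthesis, had 13.1, 22.2 and 12.1 in batch 1 brain libraries and 4000, 1186 and 1923 in batch 2 brain libraries. Syn2, a synaptic vesicle gene, had 7.47, 5.11 and 10.3 in batch 1 brain libraries and 2766, 4867 and 865 in batch 2 brain libraries. Their cause was not tested.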
